A study of Homo sapiens with 4 samples.

Results

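The transcripts of 34 genes that encode pausing and elongation factors of RNA polymerase II (Pol II) were examined in HEK293T cells whose RPRD1B had been targeted by a short hairpin RNA. The genes were taken by symbol from a list of complexes: DSIF, NELF, P-TEFb with its 7SK partners, the super elongation complex, the PAF complex, SPT6 with IWS1 and SETD2, FACT, TFIIS, and CDK12/13 with cyclin K. All 34 were found among the 69222 gene identifiers counted, and 32 had enough counts to be tested. The line, HEK293T, derives from human embryonic kidney and expresses the large T antigen of SV40. Of 4 libraries of poly(A) RNA, 2 came from cells transduced with lentivirus for a hairpin against RPRD1B (shRPRD1B) and 2 from cells given a control hairpin (shCtrl), and both groups therefore carry a lentiviral insert. The labels name 1 knockdown condition, do not give the hairpin sequence, and do not say whether replicates were separate cultures, so p-values reflect only how far these samples differ, which may be technical.

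Soon after initiation Pol II halts close to the start site, where DSIF and NELF hold it. The kinase P-TEFb, made of CDK9 and a T-type cyclin, phosphorylates DSIF, NELF and the C-terminal domain (CTD) of the largest Pol II subunit, which turns the paused enzyme into an elongating one. Much of the cell's P-TEFb is kept inactive on the 7SK RNA by HEXIM1, with LARP7 and MEPCE, and the super elongation complex brings the active form to genes. The PAF complex, SPT6, FACT, TFIIS and the CDK12/13 kinases then accompany or modify the enzyme on the gene body. RPRD1B itself binds the phosphorylated CTD, and the series title places it at phosphorylated Pol II and at polyadenylation. The comparison of shRPRD1B with shCtrl shows whether the mRNAs of these factors, some of which act on the CTD, differed when RPRD1B was lowered.

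Total counts were 65572391 and 54722140 in shRPRD1B 1 and 2, and 47732913 and 48494258 in shCtrl 1 and 2. Values are given in CPM, counts scaled for library size with TMM factors. RPRD1B stood at 27.2 and 35.5 CPM in shRPRD1B 1 and 2, against 50.4 and 50.1 CPM in shCtrl 1 and 2. Its knockdown level was 62.4% of the control level (log2 fold change -0.68 ± 0.16 (SE), edgeR adjusted p = 0.448 over all genes), in the direction the labels give. It did not pass the threshold of 0.05 with edgeR and lay just under it with DESeq2 (adjusted p = 0.0498). The shRPRD1B libraries differed more from each other than the shCtrl libraries did, with an SD across genes of the log2 ratio between libraries of 0.463 in shRPRD1B and 0.245 in shCtrl over the 11541 genes of at least 5 CPM. Mitochondrial genes took 2.54% and 3.61% of counts in shRPRD1B 1 and 2, and 2.71% and 2.78% in shCtrl 1 and 2. The 8 listed HEK293T markers were all at 1 CPM or more in every library. Their summed levels were 621 to 698 CPM in shRPRD1B and 675 to 688 CPM in shCtrl. Among the 8, KRT8 and PAX2 had the widest gaps between the knockdown libraries. KRT8 had 22.9 and 6.46 CPM in shRPRD1B 1 and 2, against 27.1 and 24.9 CPM in shCtrl 1 and 2. PAX2 had 11.4 and 5.82 CPM in shRPRD1B 1 and 2, against 7.51 and 8.38 CPM in shCtrl 1 and 2. The 4 mature neuron markers summed to 19.1 to 27.1 CPM in shRPRD1B and 12.5 to 13.9 CPM in shCtrl, and 2 of the 4 stayed under 1 CPM in at least 1 library. The 4 fibroblast markers summed to 21.5 to 23.4 CPM in shRPRD1B and 32.9 to 37.4 CPM in shCtrl, and 2 of the 4 reached 1 CPM in every library. Leukocyte markers summed to 1.81 to 3.28 CPM in shRPRD1B and 3.35 to 3.55 CPM in shCtrl. Hepatocyte markers summed to 0.219 to 0.488 CPM in shRPRD1B and 0.534 to 0.971 CPM in shCtrl, with SERPINA1 at 0 counts in every library. None of these markers was called by edgeR, while DESeq2 called the neuron marker SYN1 higher (1.72, adjusted p = 0.0399) and the fibroblast marker LUM lower (-1.63, adjusted p = 0.0461). The part of these markers and of mitochondrial RNA in the results was not tested. In bulk RNA, fewer cells of a kind and less RNA per cell cannot be told apart.

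None of the 32 tested elongation factor genes was called. With edgeR's quasi-likelihood test and p-values adjusted by Benjamini-Hochberg over all genes, 0 of 32 members passed 0.05, where 14 of 20319 genes did, 0.0689% of those tested (0.0295% higher and 0.0394% lower). At an unadjusted p under 0.05 it gave 0 of 32 members, where 7.49% of all genes lay. DESeq2 called 0 of the 31 members it tested (1.16% of its genes, 0.651% higher and 0.513% lower), and limma voom called 0 members and 0 of all genes, with 0 members at an unadjusted p under 0.05 (7.19% of all genes). The fold changes were small: the median log2 fold change was 0.063 over the members and 0.0036 over all genes tested, and 23 of 32 members were positive, where 50.5% of all genes and 55.0% of protein-coding genes of at least 5 CPM were. Without shRPRD1B 2 the count was 9 of 32, and without shRPRD1B 1 it was 27. Fold changes also went with transcript length over all protein-coding genes of at least 5 CPM, as given below. Once length and GC content were corrected, 19 of 32 were positive. For 31 of 32 members the 95% interval of the fold change lay within 2-fold either way, and for 21 it lay within 1.5-fold. Differences smaller than these intervals could not be told from the spread between libraries. The calls depended on the knockdown pair. Without shRPRD1B 2, edgeR called 3 members (1 higher and 2 lower), where it called 10.4% of all genes, and without shRPRD1B 1 it called 19 (17 higher and 2 lower), where it called 29.1% of all genes. The 3 were TCEA2, higher, and HEXIM1 and SUPT6H, lower. The 19 were NELFB and CDK9, lower, and SUPT5H, CCNT1, CCNT2, HEXIM1, MEPCE, AFF4, MLLT1, CTR9, LEO1, CDC73, SUPT6H, IWS1, SETD2, SUPT16H, SSRP1, CDK12 and CCNK, higher, between 0.18 and 0.61. In these fits the lone knockdown library is assumed to vary like the controls.

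**Figure D1:**
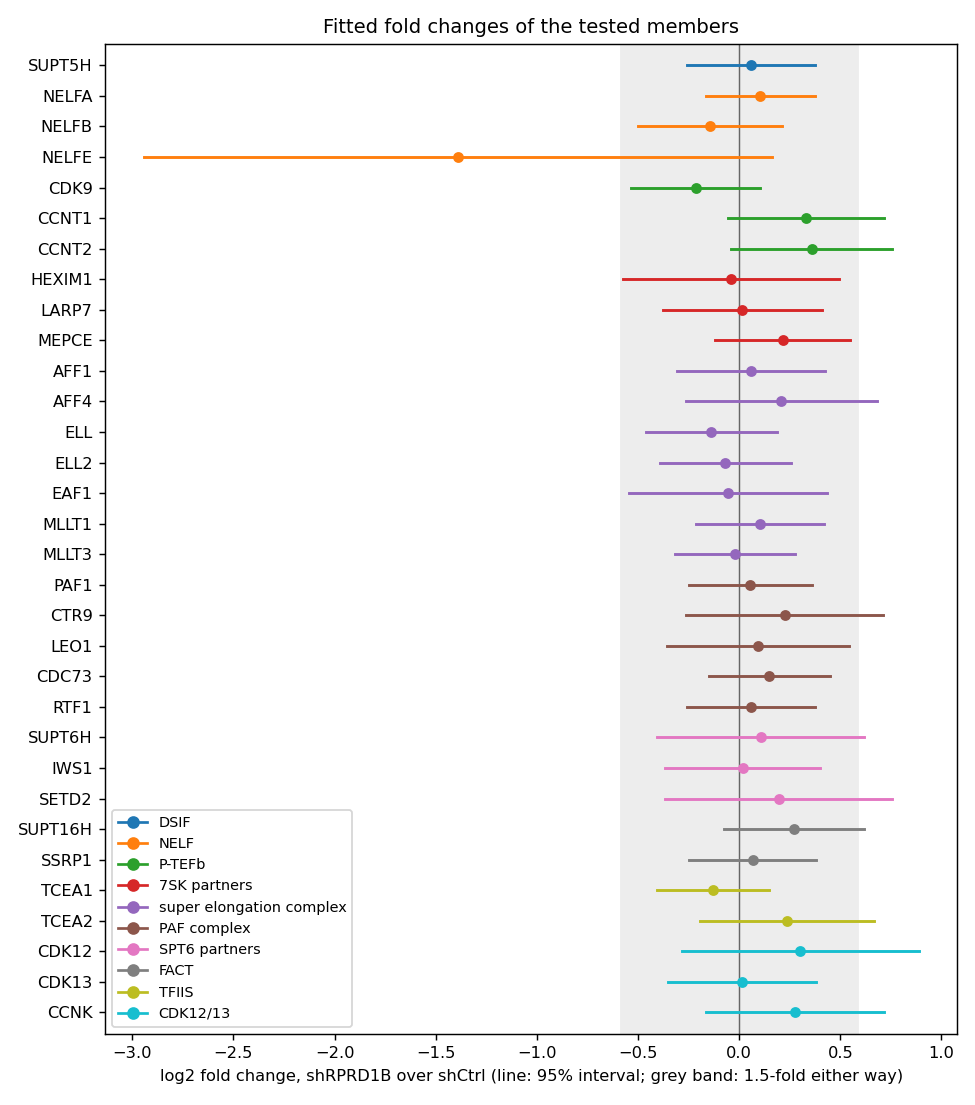
Fitted log2 fold changes (shRPRD1B over shCtrl, horizontal axis) of the 32 tested members, coloured by complex, with 95% intervals as lines and the 1.5-fold range as a grey band. Every interval crosses 0, and NELFE, the member with the fewest counts among those tested, has the widest.

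In 17 of 32 members the 2 knockdown libraries lay on opposite sides of the controls. Over the 32 tested members the median log2 ratio to the shCtrl mean was -0.087 in shRPRD1B 1 and 0.19 in shRPRD1B 2, where over all genes tested the medians were 0.0013 and -5.2e-05. The value was higher in shRPRD1B 2 than in shRPRD1B 1 for 28 of 32 members, 87.5%, where 49.6% of all genes tested were. In these 17 members (53.1%) shRPRD1B 1 lay below both controls and shRPRD1B 2 above both, and in 0 members the reverse was seen. Over all genes tested these shares were 13.3% and 13.5%, and over protein-coding genes of at least 5 CPM they were 17.0% and 15.5%. A group mean for these genes averages values on either side of the control, and fold changes near 0 in the lines that follow often stand for such a pair.

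**Figure D2:**
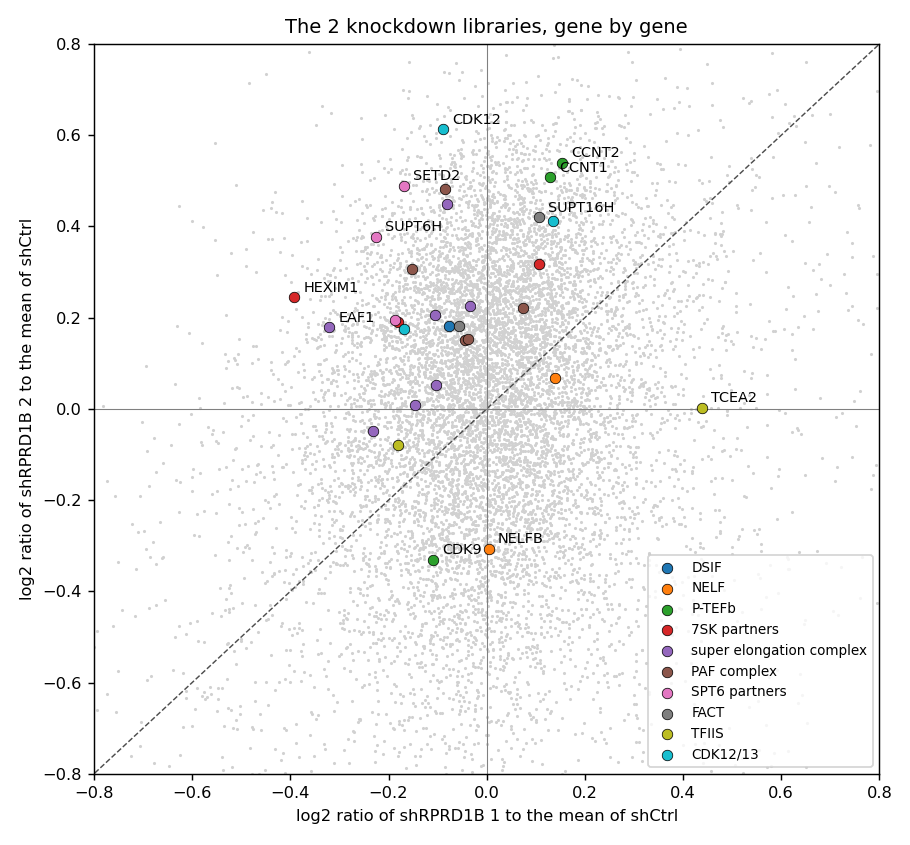
Log2 ratio of each knockdown library to the shCtrl mean, shRPRD1B 1 across and shRPRD1B 2 up, for the members (coloured by complex) and for 10739 other protein-coding genes of at least 5 CPM (grey), of which 555 lie outside the axes. Most members lie above the dashed line of equal ratios, and many lie in the upper left, where the libraries differ in direction.

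The difference between the knockdown libraries went with transcript length and base composition across the transcriptome. Over 10770 protein-coding genes of at least 5 CPM, Spearman's rho between transcript length and the log2 ratio of shRPRD1B 2 to shRPRD1B 1 was 0.43, and between GC content and that ratio it was -0.44. The fold change of shRPRD1B over shCtrl went the same way, with a rho of 0.34 for length and -0.17 for GC content. These are correlations across genes, which share libraries and are not independent replicates. The 31 members of at least 5 CPM had longer transcripts (median 4507 bases) than the 10770 genes (3352 bases) and a lower median GC content (45.2% in members, 48.6% in the 10770 genes). Of the members longer than 4388 bases, the lower limit of the longest of 3 equal classes of genes, 16 of 16 were higher in shRPRD1B 2, as were 72.7% of all genes in that class. In the middle class 8 of 8 members were higher in shRPRD1B 2, where 55.2% of all genes were. Among members of at most 2499 bases, the limit of the shortest class, 3 of 7 were, as were 30.5% of all genes there. The median fold change over shCtrl in the shortest, middle and longest class was -0.063, 0.037 and 0.10 for all genes. For members it was 0.055, 0.037 and 0.13. When length and GC content were corrected in each library, an alternative chosen after seeing the data, 26 of 32 members (81.3%) were still higher in shRPRD1B 2, against 48.5% of protein-coding genes of at least 5 CPM. With that correction 19 of 32 fold changes were positive and 0 members were called.

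**Figure D3:**
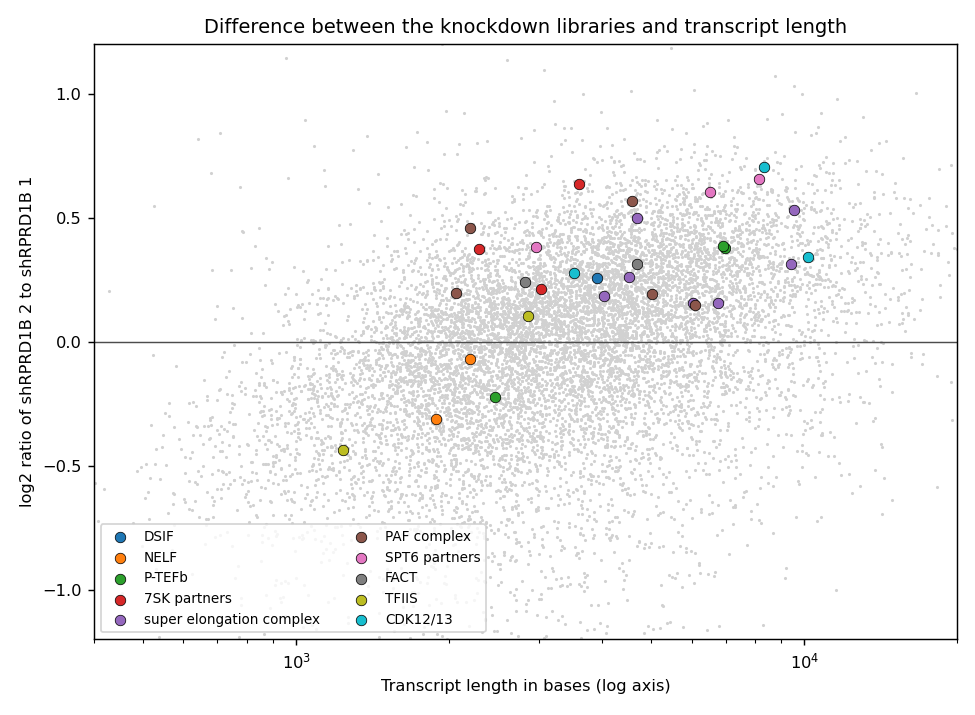
Log2 ratio of shRPRD1B 2 to shRPRD1B 1 against transcript length (log axis) for the members (coloured) and 10739 other protein-coding genes of at least 5 CPM (grey), of which 173 lie outside the axes. Ratios are higher for longer transcripts, and the 4 members of at least 5 CPM that were lower in shRPRD1B 2 are all at most 2499 bases long.

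Members differed widely in abundance. Per kilobase of exon, SSRP1 had the highest mean level, 94.3 in shRPRD1B and 90.1 in shCtrl CPM per kb, followed in shCtrl by NELFB (62.9 in shRPRD1B and 69.5 in shCtrl) and SUPT16H (65.99 in shRPRD1B and 54.7 in shCtrl). In shCtrl the libraries of NELFB and SUPT16H did not overlap, and in shRPRD1B they did, so their order there is not set. Cyclin K had the lowest level among the members of at least 10 CPM, 1.86 in shRPRD1B and 1.54 in shCtrl CPM per kb. These lengths are unions of GENCODE 29 exons, and genes with long alternative exons get lower values. In 3 members, SUPT4H1, NELFCD and NELFE, the counts were under 1 CPM in every library, although their products are constant subunits of complexes that every cell uses, so that these counts cannot be read as transcript levels.

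**Figure D4:**
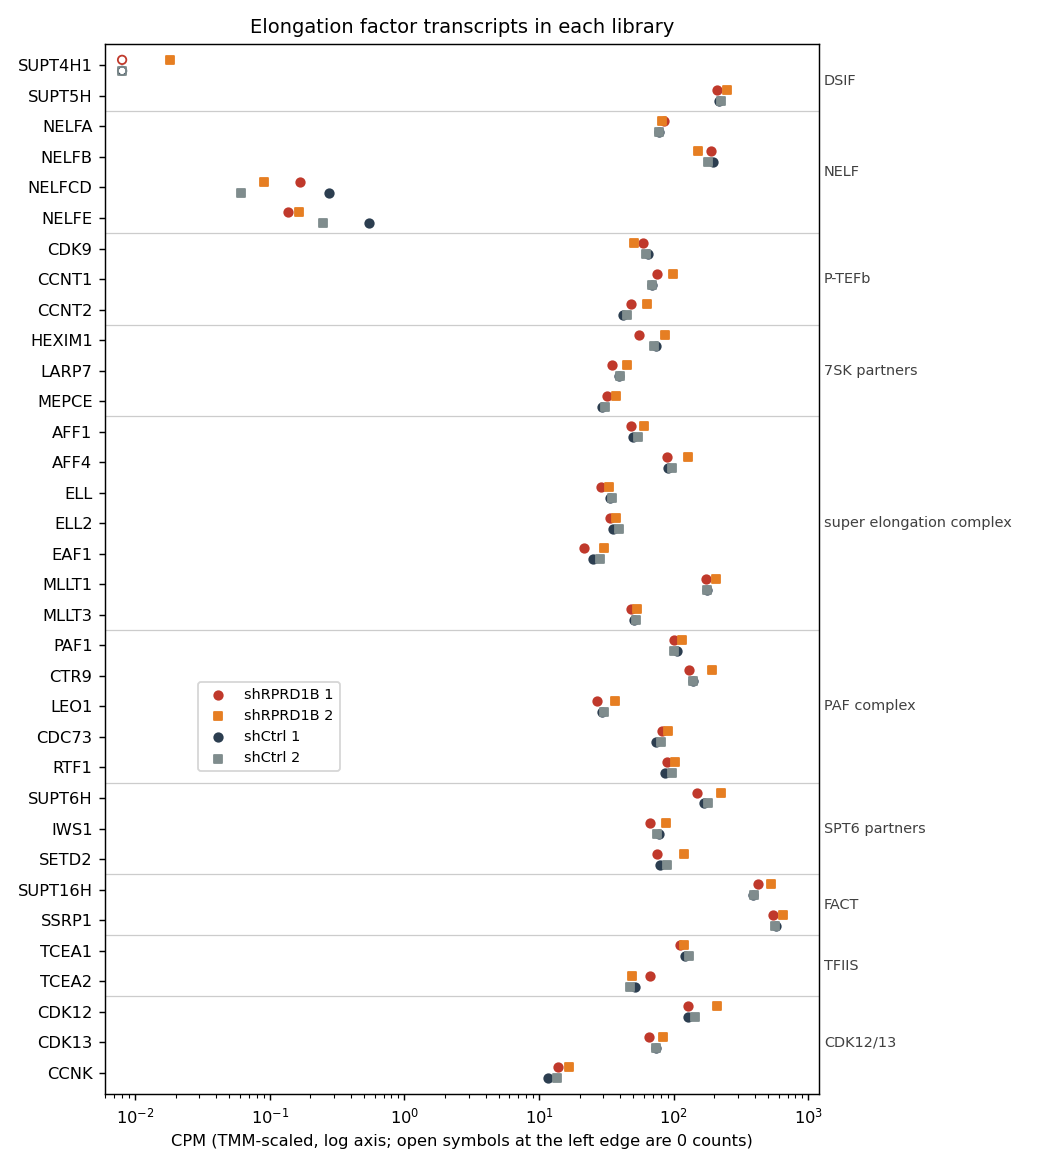
CPM of the 34 members (rows, grouped by complex) in the 4 libraries on a log axis, shRPRD1B above shCtrl within each row. Most members stand above 10 CPM with the 4 libraries close together, while SUPT4H1, NELFCD and NELFE lie under 1 CPM.

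The word ACTAGC, chosen in an earlier analysis on the fold changes of these same counts, where transcripts with lower levels held it more often, was looked for in the members' 3′ UTRs (GENCODE 29, sense strand, 1 transcript a gene). It was present in 7 of the 30 members of at least 5 CPM with a 3′ UTR, 23.3%, where 15.3% of 10677 genes had it. These shares were not matched for 3′ UTR length, and a longer 3′ UTR has more places for a word. The 3′ UTRs of the 7 had 1548 to 5337 bases, and some long ones, as in AFF4 (5680 bases), lacked the word. The following sites are shown 5′ to 3′, with the word in capitals and 12 bases on each side. That of TCEA1 is not shown.
CCNT1: atgtgcctgtcaACTAGCatgtgtattgtc
HEXIM1: gttgctcaaatcACTAGCacagaggttcct
AFF1: cacattaatgttACTAGCatcaggagctta
MLLT1: ggctctactcagACTAGCgccaacagtctc
CDC73: aaattttttgagACTAGCagtatattttat
CDK12: tgctcacttgctACTAGCaggcgacttacg

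Of these 7 members, 5 had a positive fold change, CCNT1 (0.33 ± 0.15), CDK12 (0.30 ± 0.24), CDC73 (0.15 ± 0.12), MLLT1 (0.10 ± 0.13) and AFF1 (0.056 ± 0.15), and 2 a negative one, HEXIM1 (-0.040 ± 0.22) and TCEA1 (-0.13 ± 0.11). The median fold change was 0.10 for members with the word and 0.067 for members without it, and over the 10677 genes it was 0.0039 with the word and 0.029 without. A match is a description of the letters only, and the word was chosen on these counts.

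DSIF, the heterodimer that both holds the paused enzyme and later travels with it, was measured through SUPT5H (chromosome 19, 39445582 to 39476670 in GRCh38), the gene of its large subunit SPT5. SUPT5H had 209 and 249.8 CPM in shRPRD1B 1 and 2, against 217 and 224 CPM in shCtrl 1 and 2. The knockdown libraries lay on both sides of the controls, and the fold change was 0.058 ± 0.13 (interval from -0.26 to 0.38, edgeR adjusted p = 0.915). SUPT4H1, which encodes the small subunit SPT4, had 0 and 1 counts in shRPRD1B 1 and 2 and 0 and 0 counts in shCtrl 1 and 2. In GENCODE 29, other genes' exons cover 89.9% of its exon bases, and 85.6% of the 50-base words of its transcript also occur in transcripts of other genes. No comparison was possible for it.

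NELF, the negative elongation factor, holds Pol II at the pause site and has 4 subunits, of which 2 were measured well. NELFA, the subunit that contacts Pol II, had 85.2 and 81.1 CPM in shRPRD1B 1 and 2, against 77.5 and 77.2 CPM in shCtrl 1 and 2. Both knockdown libraries lay just above both controls (0.10 ± 0.11, adjusted p = 0.81). NELFB had 188 and 151 CPM in shRPRD1B 1 and 2, against 196 and 179 CPM in shCtrl 1 and 2, and only shRPRD1B 2 lay below both controls (-0.14 ± 0.14). NELFE, whose product carries an RNA-binding domain, had 9 and 9 counts in shRPRD1B 1 and 2 and 26 and 12 counts in shCtrl 1 and 2. Its 2 controls differed 2.23-fold in CPM, and its fold change of -1.39 ± 0.63 had an interval from -2.94 to 0.16 (edgeR adjusted p = 0.684). NELFCD had 11 and 5 counts in shRPRD1B 1 and 2 and 13 and 3 counts in shCtrl 1 and 2, and was not tested. In GENCODE 29, other genes' exons cover 4.89% of the exon bases of NELFE and 0% of those of NELFCD. The annotation release used for the counts is not given, and the cause of these low counts was not tested.

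The P-TEFb genes split between the kinase and its cyclins. CCNT2 (chromosome 2, 134918822 to 134959342), the gene of cyclin T2, had 48.3 and 63.2 CPM in shRPRD1B 1 and 2, against 42.2 and 44.8 CPM in shCtrl 1 and 2. Both knockdown libraries lay above both controls, the group means were 55.8 ± 10.5 CPM in shRPRD1B and 43.5 ± 1.78 CPM in shCtrl (SD, 2 libraries each), and the fold change was 0.36 ± 0.16 (interval from -0.041 to 0.76, edgeR adjusted p = 0.683), the smallest edgeR p of any member. CCNT1, the gene of cyclin T1, the partner through which P-TEFb joins HIV Tat, had 75.5 and 98.1 CPM in shRPRD1B 1 and 2, against 68.5 and 69.5 CPM in shCtrl 1 and 2, again with no overlap (0.33 ± 0.15, adjusted p = 0.69). CDK9, which encodes the catalytic subunit, had 58.6 and 50.3 CPM in shRPRD1B 1 and 2, against 64.7 and 61.8 CPM in shCtrl 1 and 2, and here both knockdown libraries lay below both controls (-0.22 ± 0.13, adjusted p = 0.718). The cyclins thus had positive and the kinase a negative fold change in these libraries, none past the threshold, and the difference between them was not tested. The transcripts of CCNT2 and CCNT1 have 6917 and 6973 bases (GC 37.0% and 40.8%), and that of CDK9 has 2463 bases (55.1%). Over all protein-coding genes of at least 5 CPM the median fold change was 0.10 in the longest class and -0.063 in the shortest. The part of length and GC content in this split was not tested. Without shRPRD1B 1 the fold changes of CCNT2, CCNT1 and CDK9 were 0.54, 0.51 and -0.33. Without shRPRD1B 2 they were 0.15, 0.13 and -0.11.

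Groups that did not overlap, as in these 3 genes, were found above the controls at a share close to that of all genes. Below the controls the share was lower in the main test, but not with transcript length and GC content corrected. Both knockdown libraries lay above both controls in 7 of 32 members, 21.9%, where 20.3% of all genes tested did. They lay below both controls in 4 of 32 members, 12.5%, where 20.6% of all genes did. In either direction the count was 11 of 32, 34.4%, where 40.9% of all genes had groups apart. The 7 were NELFA, CCNT1, CCNT2, MEPCE, CDC73, SUPT16H and CCNK, and the 4 were NELFE, CDK9, ELL and TCEA1. The counts of NELFE cannot be read as a level. Under the filter of at least 5 CPM in 2 libraries, 3 members lay below both controls, where 21.2% of all genes did. With length and GC content corrected, 7 members lay above both controls (21.2% of all genes) and 8 below (21.7%). An exact permutation of 2 against 2 libraries cannot give a two-sided p under 0.3333.

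The 7SK partners hold P-TEFb in reserve. MEPCE (chromosome 7, 100428790 to 100434118), the enzyme that caps the 7SK RNA, had 32.2 and 37.3 CPM in shRPRD1B 1 and 2, against 29.1 and 30.7 CPM in shCtrl 1 and 2. Its groups did not overlap (0.22 ± 0.13, edgeR adjusted p = 0.729). HEXIM1, the P-TEFb inhibitor, had 55.3 and 85.96 CPM in shRPRD1B 1 and 2, against 73.6 and 71.6 CPM in shCtrl 1 and 2. Here the knockdown libraries lay on opposite sides of close controls, 1.55-fold apart, and the fold change was -0.040 ± 0.22 (adjusted p = 0.969). HEXIM1 was called lower without shRPRD1B 2 (-0.39, edgeR adjusted p = 0.00285) and higher without shRPRD1B 1 (0.25, adjusted p = 0.0149), so its direction rested on 1 library. The gene AC138150.1 on the opposite strand overlaps 14.4% of its exon bases. LARP7, which binds the 3′ end of 7SK, had 34.8 and 45.1 CPM in shRPRD1B 1 and 2, against 38.9 and 40.1 CPM in shCtrl 1 and 2 (0.016 ± 0.16). The 7SK RNA itself, RN7SK, has no poly(A) tail and was listed at 0 counts in every library. In GENCODE 29 another gene, RF00100, covers 100% of its exon bases on the same strand. The cause of the 0 counts was not tested, and they cannot be read as a level.

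The super elongation complex joins P-TEFb to AFF scaffolds, ELL elongation factors and YEATS-domain readers of acylated histones, and its 7 genes had a median fold change of -0.023, with 3 positive and 4 negative. AFF4 (chromosome 5, 132875395 to 132963634), the scaffold of the core complex, had 88.5 and 128 CPM in shRPRD1B 1 and 2, against 90.2 and 96.96 CPM in shCtrl 1 and 2. Only shRPRD1B 2 stood clear of the controls (0.21 ± 0.19, edgeR adjusted p = 0.79). The scaffold gene AFF1 had 48.5 and 60.2 CPM in shRPRD1B 1 and 2, against 50.01 and 54.5 CPM in shCtrl 1 and 2 (0.056 ± 0.15). ELL, which lowers Pol II pausing along the gene, was the one of the 7 whose groups did not overlap, with 29.04 and 32.98 CPM in shRPRD1B 1 and 2, against 33.3 and 34.9 CPM in shCtrl 1 and 2 (-0.14 ± 0.13, adjusted p = 0.795). ELL2 gave -0.069 ± 0.13 and their cofactor EAF1 -0.054 ± 0.20, with EAF1 at 21.4 and 30.3 CPM in shRPRD1B 1 and 2, against 25.2 and 28.4 CPM in shCtrl 1 and 2. The antisense and neighbouring genes that overlap 40.8% of EAF1's exon bases make that count uncertain, since the strand setting is not given in the sources used here. The readers MLLT1 (ENL) and MLLT3 (AF9) gave 0.10 ± 0.13 and -0.023 ± 0.12.

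The PAF complex rides with elongating Pol II and promotes ubiquitination and methylation of histones on gene bodies, and each of its 5 genes had a positive fold change, between 0.055 and 0.23. CDC73 (chromosome 1, 193122031 to 193254815), the gene of parafibromin, had 81.7 and 90.5 CPM in shRPRD1B 1 and 2, against 74.4 and 80.98 CPM in shCtrl 1 and 2. Its groups did not overlap, though its lowest knockdown library and highest control differed by less than the controls did (0.15 ± 0.12, edgeR adjusted p = 0.771). CTR9, the scaffold subunit, had 130.2 and 193 CPM in shRPRD1B 1 and 2, against 138 and 138 CPM in shCtrl 1 and 2, so that the value in shRPRD1B 2 stood well above the other 3 libraries (0.23 ± 0.20, adjusted p = 0.782). PAF1 (0.055 ± 0.12), LEO1 (0.093 ± 0.18) and RTF1 (0.059 ± 0.13) each had shRPRD1B 2 above both controls, and the sign of CTR9, PAF1, LEO1 and RTF1 turned without shRPRD1B 2 (-0.083, -0.043, -0.15 and -0.037).

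SPT6, IWS1 and SETD2 form a path from the elongating CTD to methylation of histone H3. SETD2 (chromosome 3, 47016436 to 47164840), the methyltransferase, had 74.98 and 118 CPM in shRPRD1B 1 and 2, against 79.5 and 89.3 CPM in shCtrl 1 and 2. SUPT6H, the gene of the histone chaperone SPT6, had 148 and 225 CPM in shRPRD1B 1 and 2, against 168 and 179 CPM in shCtrl 1 and 2. In both genes shRPRD1B 1 lay below both controls and shRPRD1B 2 above both, over 1.5-fold apart (0.19 ± 0.23 and 0.11 ± 0.21, edgeR adjusted p = 0.829 and 0.905). SUPT6H was called in opposite directions without 1 library: -0.22 without shRPRD1B 2 (edgeR adjusted p = 0.0409) and 0.38 without shRPRD1B 1 (adjusted p = 0.000432). IWS1, which binds SPT6, gave 0.016 ± 0.16, with the same arrangement of libraries.

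FACT, the chaperone that loosens and restores nucleosomes as Pol II passes, is made of SPT16 and SSRP1, and its genes were the most abundant members in CPM. SUPT16H (chromosome 14, 21351476 to 21384019) had 421 and 523 CPM in shRPRD1B 1 and 2, against 388 and 394 CPM in shCtrl 1 and 2. Both knockdown libraries lay above both controls, with means of 472 ± 72.5 CPM in shRPRD1B and 391 ± 4.64 CPM in shCtrl (SD, 2 libraries each), and the fold change was 0.27 ± 0.14 (interval from -0.074 to 0.62, edgeR adjusted p = 0.702). A pseudogene shares 10.6% of its 50-base words. SSRP1 had 547 and 646 CPM in shRPRD1B 1 and 2, against 576 and 563 CPM in shCtrl 1 and 2 (0.067 ± 0.13), and its groups overlapped.

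TFIIS rescues backtracked Pol II by stimulating cleavage of the nascent RNA. TCEA2 (chromosome 20, 64055596 to 64072347), a form known as testis-enriched, had 66.6 and 49.2 CPM in shRPRD1B 1 and 2, against 51.3 and 46.99 CPM in shCtrl 1 and 2. It was one of the 4 members that were higher in shRPRD1B 1 than in shRPRD1B 2, with NELFA, NELFB and CDK9, and shRPRD1B 1 was the library that stood apart (0.24 ± 0.17, edgeR adjusted p = 0.747). TCEA2 was called without shRPRD1B 2 (0.44, edgeR adjusted p = 0.00189) and was at 0.0037 without shRPRD1B 1. TCEA1, the widely expressed form, had 111 and 119 CPM in shRPRD1B 1 and 2, against 122 and 129 CPM in shCtrl 1 and 2, with both knockdown libraries below both controls (-0.13 ± 0.11, adjusted p = 0.781). A pseudogene shares 25.2% of TCEA1's 50-base words.

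CDK12 and CDK13, each with cyclin K, phosphorylate the CTD of elongating Pol II, the form to which RPRD1B binds. CDK12 (chromosome 17, 39461486 to 39567559), known for sustaining long genes and DNA repair genes, had 128 and 208 CPM in shRPRD1B 1 and 2, against 128 and 144 CPM in shCtrl 1 and 2. The value in shRPRD1B 1 lay just below both controls and that in shRPRD1B 2 was the highest, 1.63-fold above shRPRD1B 1, the widest gap among members of at least 1 CPM (0.30 ± 0.24, interval from -0.28 to 0.89, edgeR adjusted p = 0.761). CDK13 had 65.6 and 83.2 CPM in shRPRD1B 1 and 2, against 73.3 and 74.2 CPM in shCtrl 1 and 2 (0.013 ± 0.15). CCNK (chromosome 14, 99481409 to 99512440), the gene of cyclin K, had 13.8 and 16.8 CPM in shRPRD1B 1 and 2, against 11.6 and 13.7 CPM in shCtrl 1 and 2, with no overlap of the groups (0.27 ± 0.18, adjusted p = 0.733). Exons of a gene on the opposite strand cover 59.5% of CCNK's exon bases, which makes its count uncertain.

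In the 6 paralogue pairs among the members (CCNT2 and CCNT1, CDK12 and CDK13, AFF4 and AFF1, ELL2 and ELL, MLLT3 and MLLT1, TCEA2 and TCEA1) the intervals of the fold changes overlapped in 6 of 6. The pairs share 0 words of 50 bases, so reads of that length would not be split between them. The fold changes were closest in CCNT2 and CCNT1 (0.36 and 0.33) and farthest apart in TCEA2 and TCEA1 (0.24 and -0.13), and the differences were not tested.

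The wider elongation machinery was followed through 45 further genes of known roles, of which 43 were tested, and none was called by edgeR or DESeq2. Their median fold change was 0.12, with 28 of 43 positive (65.1%). Of all genes 50.5% were positive, and of protein-coding genes of at least 5 CPM 55.0%, with a median of 0.025. Both knockdown libraries lay above both controls in 13 (30.2%, where 20.3% of all genes did) and below in 4 (9.3%, where 20.6% did). Of 10683 protein-coding genes of at least 5 CPM, 2521 lay above and 2090 below. At an unadjusted edgeR p under 0.05 there were 3 higher (6.98%, where 3.55% of all genes were) and 0 lower (3.94% of all genes). PCIF1, a CTD-binding enzyme that methylates the adenosine next to the mRNA cap, had 62.3 and 53.96 CPM in shRPRD1B 1 and 2, against 46.8 and 42.4 CPM in shCtrl 1 and 2 (0.38 ± 0.13, edgeR adjusted p = 0.64). Both knockdown libraries lay above both controls for it, as for USPL1 and PHF3. USPL1, a SUMO protease of Cajal bodies linked to the little elongation complex, had 28.4 and 37.9 CPM in shRPRD1B 1 and 2, against 23.6 and 24.97 CPM in shCtrl 1 and 2 (0.45 ± 0.17, adjusted p = 0.66). PHF3, which docks on the phosphorylated CTD as RPRD1B does, had 99.4 and 136 CPM in shRPRD1B 1 and 2, against 89.3 and 92.98 CPM in shCtrl 1 and 2 (0.37 ± 0.17, adjusted p = 0.687). PCIF1 and USPL1 were under an unadjusted 0.05 with all 4 libraries and PHF3 was not. Without shCtrl 1, or without shCtrl 2, neither was, but a smaller share of all genes was as well.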

How the data were processed

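Poly(A) RNA of HEK293T cells was sequenced in 2 shRPRD1B and 2 shCtrl libraries prepared with a NEBNext Ultra RNA kit, per the labels' protocols. The authors deposited raw counts per gene. Trim Galore, HISAT2, featureCounts and hg38 are named in the submitters' processing notes. The sources used here do not give versions, annotation release, strand setting or the handling of multi-mapped reads, so overlapping genes and genes with near-identical copies are uncertain.

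Counts of genes passing filterByExpr (minimum count 10; 20319 of 69222 identifiers) were scaled with TMM and tested in R 4.3.3 with edgeR 4.0.16 (quasi-likelihood, robust, current dispersion method), with Benjamini-Hochberg adjustment over all genes tested and a threshold of 0.05. DESeq2 1.42.0, limma voom 3.58.1, other scalings and filters, a replicate block and leaving out each library were alternatives. Correcting each library for transcript length and GC content (mgcv 1.9.3) was added after seeing the data. Exon lengths, overlaps, 50-base words and 3′ UTRs came from GENCODE 29, and coordinates from RefSeq on GRCh38. Total counts were 47732913 to 65572391 per library.

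The rule for values in every library took the member of smallest edgeR p in each complex, any member called or at an unadjusted p under 0.05, members whose libraries of 1 group differed over 2-fold, and, of the other elongation genes, the 4 of smallest p. 1 of these 4 is not reported here. Paralogue pairs were set side by side. Further members given per library were chosen after their values were seen. The members and lists were chosen with earlier results of these data known.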

Additional observations from a re-analysis of the deposited data

How the results depend on the processing

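The count of 0 called members held under the other scalings, filters and tools, the replicate block and the correction, with a median fold change of 0.037 to 0.072. Genes called over all genes, 14 in the main test, numbered 218 with DESeq2, 0 with limma voom, 40 with no low-count filter, 0 with at least 5 CPM in 2 libraries, 141 with the replicate block and 28 with transcript length and GC corrected. Leaving out 1 library gave 54 to 6235 genes, 0 to 19 called members, a member median of -0.083 to 0.19, and 8 to 25 of 32 members above (29.1% to 41.2% of all genes) and 5 to 22 below both controls (29.3% to 42.1%). At an unadjusted p under 0.05 there were then 0 to 21 members higher (1.36% to 19.5% of all genes) and 0 to 9 lower (1.52% to 19.5%), and 0 to 23 of the other elongation genes higher and 0 to 6 lower. The ends of these ranges come from different fits, so a count and a share at the same end need not belong together. The largest counts of lower members came without shRPRD1B 2, and the largest shares of lower genes without shRPRD1B 1. The same shares of all genes apply to the other elongation genes. With the replicate block 1 member was higher at an unadjusted p under 0.05 (4.22% of all genes) and 2 other elongation genes were lower (5.24%). The libraries share only a number: across genes the deviations of same-numbered libraries correlated at 0.15. With length and GC corrected 4 members were higher at an unadjusted p under 0.05 (4.59% of all genes), 1 other elongation gene was lower (5.34%), and 8 members lay below both controls (21.7% of all genes). RPRD1B passed with DESeq2 (-0.68) and ranged from -0.88 to -0.50 without 1 library. Signs turned with upper-quartile factors for LARP7 (-0.012), IWS1 (-0.011) and CDK13 (-0.014), and with length and GC corrected for AFF1 (-0.070), RTF1 (-0.027), IWS1 (-0.021) and CDK13 (-0.12). Without 1 library the sign turned, with these ranges: SUPT5H -0.074 to 0.18, NELFB -0.31 to 0.0053, HEXIM1 -0.39 to 0.25, LARP7 -0.18 to 0.19, AFF1 -0.11 to 0.21, AFF4 -0.079 to 0.45, ELL2 -0.15 to 0.0088, EAF1 -0.32 to 0.18, MLLT1 -0.031 to 0.23, MLLT3 -0.10 to 0.055, PAF1 -0.043 to 0.15, CTR9 -0.083 to 0.48, LEO1 -0.15 to 0.31, RTF1 -0.037 to 0.15, SUPT6H -0.22 to 0.38, IWS1 -0.18 to 0.20, SETD2 -0.17 to 0.49, SSRP1 -0.055 to 0.18, CDK12 -0.089 to 0.61 and CDK13 -0.17 to 0.18. The causes were not tested. NELFE, NELFCD and SUPT4H1 had too few counts for a comparison to resolve differences.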
